A study of Mus musculus with 3 samples.

Results

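The genes by which macrophages take up, bind, store and export lipid were examined in skin-resident macrophages during the resting phase of the hair cycle (telogen). The set holds 10 genes, Lpl, Cd36, Fabp4, Fabp5, Plin2, Apoe, Abca1, Abcg1, Pparg and Nr1h3. These were chosen by their known roles, with earlier results of these data known. Their probes were found on the array through the RefSeq transcript of each probe. The genes are 10 of the 19738 that could be named, and they are covered by 12 of 55681 non-control probes, with 2 probes each for Lpl and Nr1h3. All 12 probes were well above background on all 3 arrays.

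Macrophages were sorted by FACS as CD11b+Gr1-F4/80+ cells from the backskin of CD1 mice at 3 stages of telogen, and the labels name no treatment or altered allele. The sample labels give day 42 after birth for early telogen (Te), day 55 for mid telogen (Tm) and day 69 for late telogen (Tl), whereas the paper that reported the data places Te slightly later than the label. Each stage was represented by the RNA of 3 littermates as 1 pool, which was amplified by whole transcriptome amplification from a small amount and hybridized in 1 colour to 1 Agilent array, and the 3 arrays shared 1 slide. A stage is therefore a single pool without replicates, no test between stages was possible, and in a sorted bulk sample fewer cells of a type and less RNA per cell cannot be told apart.

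Macrophages clear lipoproteins, dying cells and their membranes, and the incoming lipid has to be hydrolysed, stored or returned to the circulation. Lipoprotein lipase and the scavenger receptor Cd36 bring fatty acids to the cell, and small cytosolic carriers (Fabp4 and Fabp5) shuttle them to the nucleus and to sites of oxidation or storage. Surplus fatty acid and cholesterol are esterified into lipid droplets, which the protein Plin2 coats, and free cholesterol leaves through the transporters Abca1 and Abcg1 onto apolipoproteins such as Apoe. The nuclear receptors PPARγ (Pparg) and LXRα (Nr1h3) sense fatty acid and sterol ligands and induce many of these genes.

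The level of a probe is given as the log2 of its intensity relative to the 75th percentile of its own array, and levels of single genes are compared within a probe only. Repeated spots of the same probe were the only measurable error. They gave the difference between the Tl and Te arrays an SD of 0.19 on the log2 scale, between Tm and Te 0.19 and between Tl and Tm 0.17. This leaves out the variation between mice, sorts and amplifications. Each SD rests on the median spot SD of probes with at least 10 spots and was used for every gene. At Te the spot SD was 0.08 for bright Apoe and 0.47 for dim Pparg, so single spots of dim genes can err more. The study's table of processed values assigns the Tm and Tl arrays the other way round than the scanner files do. The names Tm array and Tl array are used here as the scanner files were deposited, and the other assignment exchanges their values.

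Of the 10 genes, 2 were at least 2-fold higher on the Tl array than on the Te array (Plin2 and Lpl) and 0 were at least 2-fold lower, where 22.3% of 16184 genes were higher and 21.1% lower by that measure. On the Tm array 3 genes were at least 2-fold higher than on Te (Plin2, Nr1h3 and Fabp5) and 1 was lower (Abca1), where 29.2% of 15843 genes were higher and 16.9% lower. Between the later arrays 1 gene was at least 2-fold higher on Tl than on Tm (Abca1) and 0 were lower, where 7.86% of 14848 genes were higher and 11.3% lower. The shares of higher genes (20%, 30% and 10%) lay near those of all genes, and no shift of the group is read from the counts. The median change of the 10 genes was 0.54 for Tl against Te, 0.39 for Tm against Te and -0.32 for Tl against Tm, beside 0.15, 0.22 and -0.15 over all genes tested. The Te array enters both comparisons from early telogen, so their values are given side by side and are not independent.

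**Figure D1:**
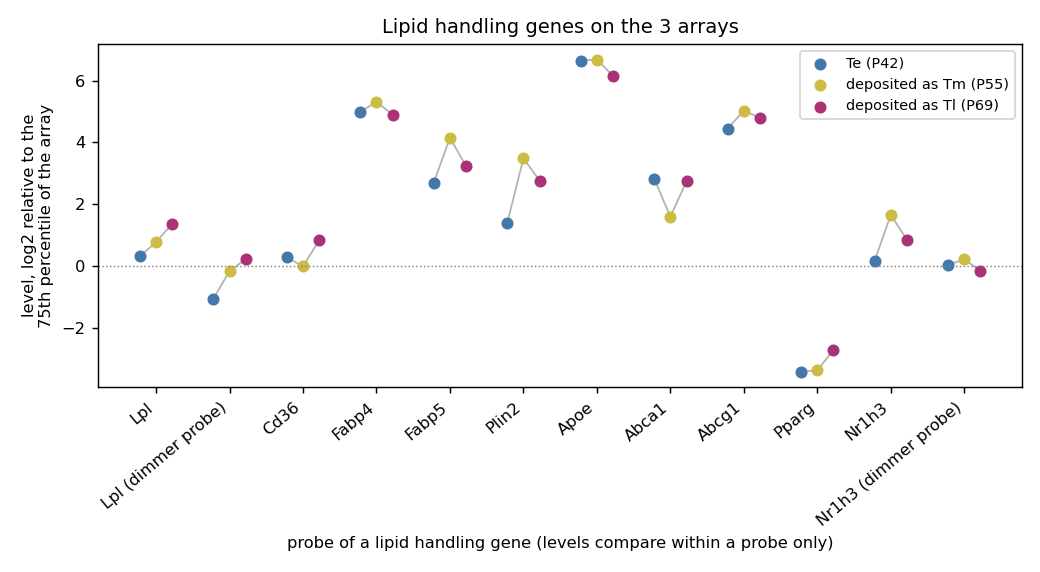
Level of each probe of the 10 lipid handling genes (log2 relative to the 75th percentile of the array, vertical axis) on the Te, Tm and Tl arrays, 1 point per array, with a second, dimmer probe shown for Lpl and Nr1h3. Plin2 is lowest on Te (1.39) and highest on Tm (3.48), Abca1 is lowest on Tm (1.59), and Pparg stays between -3.41 and -2.71.

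The lipid droplet protein Plin2, which coats stored triglyceride and cholesteryl ester, had the widest range over the arrays among the 10 genes. Its level was 1.39 at Te, 3.48 on the Tm array and 2.76 on the Tl array. Plin2 was thus 4.25-fold higher on Tm and 2.58-fold higher on Tl than on Te (log2 2.09 and 1.37), differences far above the spot error. Among genes measured on both arrays, 838 of 13247 (6.33%) had a larger increase than Plin2 from Te to Tm, and 1794 of 14160 (12.7%) from Te to Tl. Over 11 settings of scaling, background correction and filtering, the change of Plin2 ranged from 1.16 to 2.53 for Tl and from 1.58 to 2.64 for Tm. The filters on detection among them could not move it, since its probe was well above background on every array. The range thus reflects scaling and background correction.

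The cholesterol transporter Abca1, which loads free cholesterol onto lipid-poor apolipoproteins, had another pattern. It stood at 2.83 on Te, 1.59 on Tm and 2.74 on Tl, so the Te and Tl levels lay within the spot error of each other (-0.09). On the Tm array Abca1 was 2.36-fold lower than on Te (log2 -1.24), and 1272 of 13247 genes (9.60%) were lower still. The Tm value stayed below Te in all 11 settings, from -1.64 to -0.68, whereas the small Tl value turned positive with normexp background correction (0.14), scaling to the median (0.43) and no normalization (1.08). On one pair of arrays the difference between the changes of 2 genes does not depend on scaling by a constant. From Te to Tm, Plin2 increased relative to Abca1 by 3.32 (SD 0.27 from spots), and from Te to Tl by 1.46 (SD 0.26), a factor of 2.74. On Tm these 2 genes had the highest and the lowest change of the 10, so 3.32 is the whole range of the set.

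The promoters of this diverging pair are printed to show what lies upstream of them, as RefSeq gives them for GRCm38.p6, from 250 bases before the annotated start to 10 bases after it, 5′ to 3′ on the strand of the gene. The Plin2 window is chr4:86670050-86670309 on the minus strand and the Abca1 window is chr4:53159886-53160145 on the minus strand. Capitals mark an E-box (CACGTG), the nuclear receptor motif AGGTCA, which reads TGACCT on the other strand, and the TATA box (TATAAA).
Plin2: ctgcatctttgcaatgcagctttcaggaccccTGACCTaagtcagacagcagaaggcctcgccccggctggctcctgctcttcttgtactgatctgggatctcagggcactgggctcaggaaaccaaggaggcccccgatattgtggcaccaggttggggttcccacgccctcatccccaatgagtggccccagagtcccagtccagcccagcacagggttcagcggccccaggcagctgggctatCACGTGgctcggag
Abca1: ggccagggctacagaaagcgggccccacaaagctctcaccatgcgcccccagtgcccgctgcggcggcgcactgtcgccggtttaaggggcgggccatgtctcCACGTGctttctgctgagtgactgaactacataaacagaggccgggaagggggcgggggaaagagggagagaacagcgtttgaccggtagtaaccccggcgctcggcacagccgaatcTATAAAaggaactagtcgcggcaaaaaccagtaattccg
The E-box begins 4 bases before the start of Plin2 and 147 bases before that of Abca1. It was found in 2 of 11 promoters listed for 6 of the 10 genes, and in 6.34% of 32851 mouse promoters. The motif AGGTCA on either strand was found in 4 of the 11, namely in Plin2 (218 bases before the start), in Cd36 (228) and in a pair of Pparg promoters (28 and 9), and in 14.5% of all promoters. The direct repeats of that motif, AGGTCANAGGTCA and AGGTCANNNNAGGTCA, were searched as exact copies on either strand. They were in 0 of the 11 and in 0.0335% and 0.0152% of all promoters. A repeat that departs from these letters would be missed, so the 0 does not show that a window lacks such an element. The TATA box, on either strand, was in 3 of the 11 (29 bases before the start in Abca1) and in 12.7% of all. These are matches of letters and were not tested as binding sites.

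The other genes of cholesterol export differed less between the arrays. Apoe, the apolipoprotein that macrophages secrete with exported cholesterol, has 10 spots on each array. Their levels ran from 6.52 to 6.80 at Te, from 6.63 to 6.73 in the 8 spots kept on Tm and from 6.08 to 6.25 in the 9 kept on Tl, so the Tl spots did not overlap those of the other arrays. These spots share 1 RNA pool per array and are no replicates of a stage. The mean level was 6.65 at Te, 6.68 on Tm and 6.15 on Tl. Apoe was 1.41-fold lower on Tl than on Te (log2 -0.50), but it was higher by 0.02 with scaling to the median, by 0.22 with quantile normalization and by 0.67 without normalization. Abcg1, which passes cholesterol to mature lipoprotein particles, was at 4.45 on Te, 5.03 on Tm and 4.79 on Tl. Its changes from Te (0.58 on Tm and 0.34 on Tl) stayed under 2-fold, and the Tm value was -0.03 with quantile normalization. From Te to Tm, Abcg1 increased relative to Abca1 by 1.82 (SD 0.27), and from Te to Tl by 0.43 (SD 0.26).

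**Figure D2:**
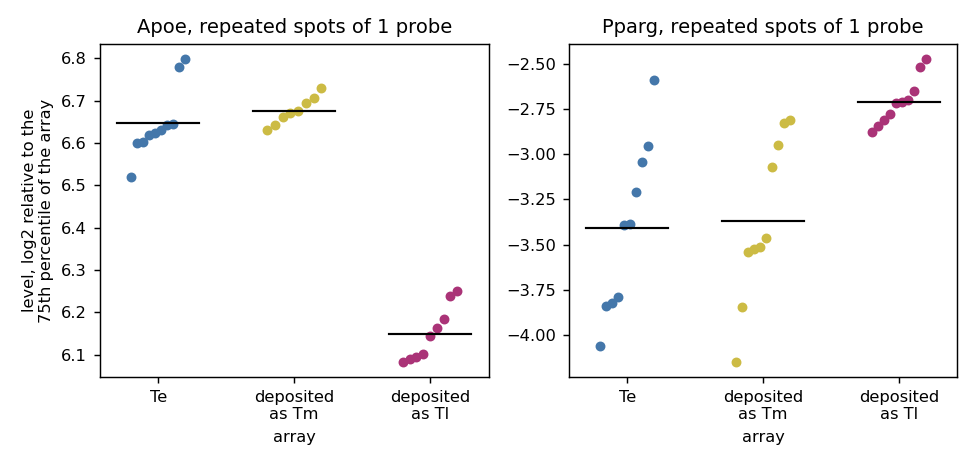
Levels of the repeated spots of the Apoe probe (left) and the Pparg probe (right) on each array (log2 relative to the 75th percentile of the array), with 1 point per spot kept and a line at the mean; the vertical axes differ and do not start at 0. The Apoe spots of the Tl array (6.08 to 6.25) lie below those of Te and Tm under this scaling, but the Tl mean is above Te by 0.02, 0.22 and 0.67 with median, quantile and no normalization, and the Pparg spots of Te and Tm spread over more than 1 log2 unit.

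Among the genes of uptake, Lpl encodes the secreted lipase that frees fatty acids from triglyceride-rich lipoproteins. Its brighter probe was at 0.32 on Te, 0.78 on Tm and 1.37 on Tl, and the dimmer probe gave -1.05, -0.17 and 0.23 in the same order of arrays. Both probes were therefore lowest on Te and highest on Tl. The change from Te to Tl was 1.05 (2.07-fold) by the brighter probe and 1.28 (2.42-fold) by the dimmer one, and the change to Tm was 0.46 and 0.88. The brighter probe passed 2-fold by less than the spot error, and it did not pass relative to the median change of all genes (0.90), with quantile normalization (0.97) or when scaled over detected probes only (0.85).

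Cd36, a scavenger receptor and fatty acid translocase, was at 0.28 on Te, -0.01 on Tm and 0.84 on Tl. It was higher on Tl than on Te by 0.55 in log2, and on Tm its value was -0.29 from Te, which is within 2 SD of the spot error and became 0.26 with scaling to the median. The gap between the Tl and Tm arrays was 0.85, or 1.80-fold. Lpl and Cd36 thus shared their highest level on the Tl array. The difference between their changes, Lpl minus Cd36, was 0.50 for Tl and 0.75 for Tm (SD 0.26 and 0.27).

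The fatty acid carriers differed from each other. Fabp5 was at 2.70 on Te, 4.15 on Tm and 3.23 on Tl, and Fabp4 at 4.99, 5.31 and 4.90. Fabp5 was 2.72-fold higher on Tm than on Te (1.44 in log2) and 1.44-fold higher on Tl (0.53). With quantile normalization the Tm change of Fabp5 was 0.86 and under 2-fold. Fabp4 stayed within 2 SD of the spot error from its Te level, with values of 0.32 on Tm and -0.09 on Tl, and the sign of each turned under other scalings (Tm -0.24 and Tl 0.14 with quantile normalization). Fabp5 increased relative to Fabp4 by 1.12 from Te to Tm and by 0.62 from Te to Tl.

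Of the regulators, Nr1h3 encodes LXRα, the sterol-sensing receptor that induces cholesterol export, and Pparg encodes PPARγ, the fatty acid-sensing receptor. The brighter Nr1h3 probe was at 0.17 on Te, 1.66 on Tm and 0.85 on Tl, which is 2.80-fold higher on Tm and 1.60-fold higher on Tl than on Te. The dimmer Nr1h3 probe stood at 0.04, 0.22 and -0.15, and its changes were 0.18 for Tm and -0.19 for Tl. The 2 probes disagree in size for Tm and in direction for Tl, so a change of Nr1h3 rests on 1 probe.

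Pparg was dim, at -3.41 on Te, -3.37 on Tm and -2.71 on Tl, means of 10 spots each. The spots ran from -4.06 to -2.59 at Te, from -4.15 to -2.81 on Tm and from -2.88 to -2.48 on Tl, so those of Te and Tl overlapped. The mean change was 0.70 for Tl and 0.04 for Tm. The spot SD was 0.47 at Te, 0.45 on Tm and 0.13 on Tl. With normexp background correction the Tl change was -0.06, but it was 1.22 with scaling to the median, 1.42 with quantile normalization and 1.86 without normalization, and scaling moved the Tm change between -0.33 and 0.84.

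**Figure D3:**
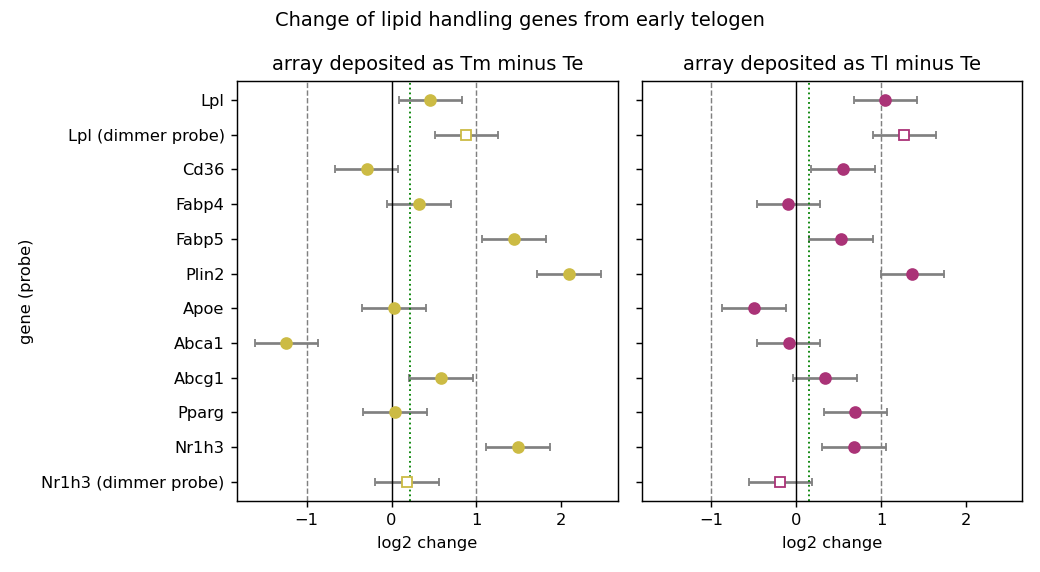
Change from the Te array in log2 for each probe of the 10 genes, on the Tm array (left) and on the Tl array (right); bars are 2 SD of a difference between single spots, dashed lines mark 2-fold, the dotted line is the median of all genes tested, and open squares are dimmer probes. The same SD was used for all probes of a panel, while the spot SD of Pparg at Te was 0.47. Plin2 lies beyond 2-fold in both panels (2.09 and 1.37), Abca1 lies below it on Tm (-1.24), and of the changes beyond 2-fold the bars of Abca1 on Tm and of Plin2 and both Lpl probes on Tl reach across the 2-fold line.

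The scaling of the arrays moved the changes of most genes together. The median change of all genes moved by 1.16 for Tl and by 0.30 for Tm when the arrays were not normalized. Of the 10 genes, 6 kept the sign of their Tl change (Plin2, Lpl, Fabp5, Cd36, Abcg1 and, by its brighter probe only, Nr1h3) and 5 that of their Tm change (Plin2, Nr1h3, Fabp5, Lpl and Abca1) in all 11 settings. Filters on detection could not alter the values of the 10 genes, since all their probes were well above background on every array. The share of higher genes among all genes past 2-fold was 51.3% for Tl and 63.3% for Tm. It became 39.4% and 43.0% when scaled over detected probes only, 67.3% and 68.1% with quantile normalization, 78.5% and 85.4% with scaling to the median, and 94.1% and 75.7% without normalization.

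**Figure D4:**
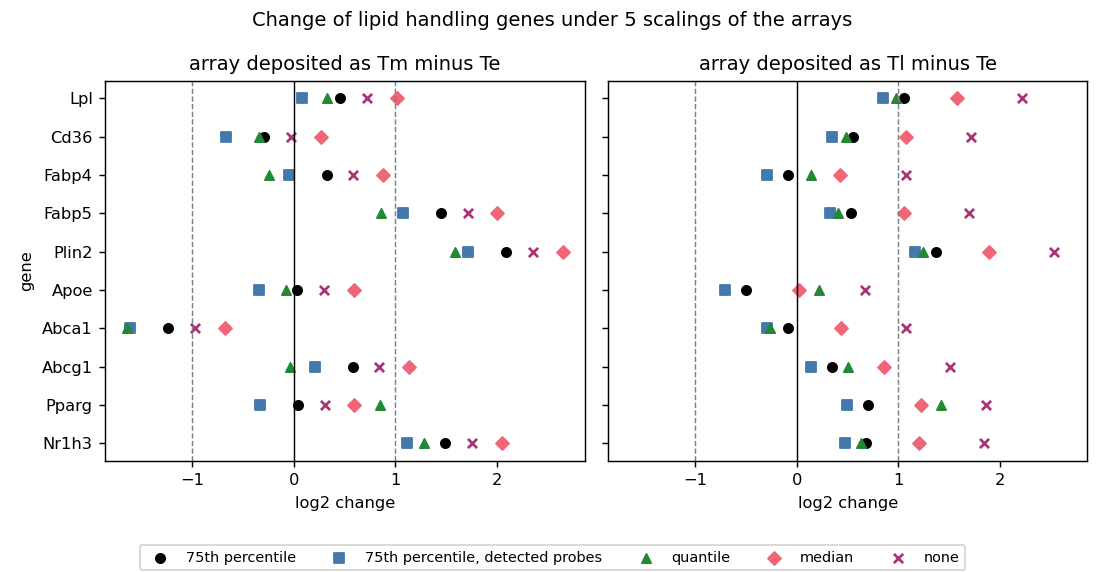
Change from the Te array in log2 for the 10 genes (brighter probe) under 5 scalings of the arrays, on the Tm array (left) and the Tl array (right); dashed lines mark 2-fold. Plin2 stays above 1 in every scaling shown, Abca1 stays below 0 on Tm, and Apoe lies on both sides of 0 in both panels.

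Other genes of the pathway were taken from lists by role, with 63 of 64 genes found on the array. On the Tm array 27 of the 61 genes with a value (44.3%) were at least 2-fold higher than on Te and 8 (13.1%) lower, with a median change of 0.86, beside 29.2% and 16.9% of all genes and their median of 0.22. On the Tl array 16 of 62 (25.8%) were higher and 7 (11.3%) lower, with a median of 0.28, beside 22.3% and 21.1% and a median of 0.15. Housekeeping genes, measured as a control, were higher on Tm to a like degree, with 4 of 9 (44.4%) at least 2-fold higher and 0 lower (Pgk1 1.57, Tbp 1.42, Hprt 1.23 and Rplp0 1.16) and a median of 0.93, and on Tl 3 of 9 (33.3%) were higher and 0 lower, with a median of 0.09. The share of pathway genes higher on Tm was thus close to that of these 9 control genes, but the shares lower were not (13.1% and 0). The other controls changed on Tm by 0.93 (Ppia), 0.52 (B2m), 0.45 (Gapdh), 0.16 (Actb) and 0.08 (Ywhaz). The shares of all genes given here also stand beside the counts of each list that follows.

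The droplet list (triglyceride and cholesteryl ester synthesis and lipolysis) had 8 of 10 genes at least 2-fold higher on Tm and 1 lower, with a median of 1.49, and 3 higher and 1 lower on Tl, with a median of 0.77. Dgat2, which makes triglyceride, was at 0.50 on Te, 4.58 on Tm and 3.53 on Tl, higher by 4.08 and 3.03. Nceh1, which hydrolyses cholesteryl ester in macrophages, was at 1.16, 4.01 and 3.74. The lipolysis inhibitor G0s2 was lower on both arrays, at -1.17 on Te, -2.33 on Tm and -2.46 on Tl. More genes of this list were higher on the Tm array than on the Tl array (80.0% and 30.0%). That order also held among all genes (29.2% and 22.3%).

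Among genes that bind and activate fatty acids, 6 of 8 were at least 2-fold higher on Tm and 1 lower (median 1.59), and 5 of 8 were higher on Tl and 0 lower (median 1.19). Scp2, a carrier of sterols and acyl chains, was higher by 1.94 on Tm and 2.04 on Tl, and the acyl-CoA synthetase Acsl3 by 1.41 and 2.22. Fabp3, a paralogue of Fabp4 and Fabp5, was lower by 1.70 in log2 on Tm (log2 -1.70), and its Tl value was -0.49. The 3 carriers thus had different changes on the Tm array, 1.44 for Fabp5, 0.32 for Fabp4 and -1.70 for Fabp3.

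Among uptake receptors and lysosomal genes, on Tl 1 of 12 was at least 2-fold higher and 3 lower (25.0%, beside 21.1% of all genes). The Tl median was -0.50, and it became 0.02 with scaling to the median and 0.67 without normalization. On Tm 2 were higher (16.7%, beside 29.2% of all genes) and 4 lower (33.3%, beside 16.9%), with a median of 0.42. The scavenger receptor Msr1 changed by -1.08 on Tl and -1.62 on Tm, and Lrp1, the receptor for Apoe-rich remnants, by -1.03 and -1.03. Without normalization their Tl values were 0.0853 and 0.13. The lysosomal acid lipase Lipa was higher by 1.00 on Tl and 0.67 on Tm, and Npc1, which exports cholesterol from lysosomes, by 0.49 and 1.06.

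Of 6 genes of cholesterol efflux and lipoprotein, 1 was at least 2-fold higher and 2 lower on Tl (median -0.22). On Tm 1 was higher and 1 lower (median -0.12). With scaling to the median the Tl and Tm medians of this list became 0.30 and 0.44. Apoc1, an apolipoprotein encoded beside Apoe, was at -0.09 on Te, 3.31 on Tm and 2.82 on Tl. Its increases of 3.39 and 2.91 stood against 0.03 and -0.50 for Apoe. Lcat, which esterifies cholesterol on lipoproteins, and the sterol hydroxylase Cyp27a1 changed by -1.25 and -1.18 on Tl and by -0.75 and -0.96 on Tm, while the transporter Abca7 changed by 0.27 and 0.95.

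Among nuclear receptors and coregulators 4 of 10 were at least 2-fold higher on Tm and 1 lower (median 0.42), and 1 was higher and 1 lower on Tl (median 0.23). Ppara, the fatty acid-sensing receptor of oxidative tissues, was higher by 1.13 on Tm and 0.99 on Tl. Nr1h2, which encodes the partner receptor LXRβ, changed by -0.05 and -0.57. The coactivator Ppargc1a was at -2.18 on Te and -4.01 on Tl, and on Tm it was not well above background, which makes its decrease at least 1.86 (log2 -1.86).

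Of 4 LXR targets, 2 were at least 2-fold higher and 0 lower on Tm (median 0.62), and 1 was higher and 0 lower on Tl (median 0.13). Arl4c was higher by 1.86 on Tm and 1.36 on Tl and the phospholipid-remodelling enzyme Lpcat3 by 1.12 and 0.29. Srebf1, the regulator of fatty acid synthesis, changed by 0.12 and -0.13. Mylip, which degrades the LDL receptor, changed by -0.28 and -0.03 by its brighter probe. The median over the 2 probes of Mylip was 0.47 on Tl, so its probes disagree there. Abca1, Abcg1 and Apoe, which are LXR targets among the 10 genes, had Tm values of -1.24, 0.58 and 0.03. The brighter probe of Nr1h3 itself had 1.49.

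For PPAR targets and fatty acid oxidation, 4 of 12 genes were at least 2-fold higher and 0 lower on Tl (median 0.56), and 4 of 11 were higher and 0 lower on Tm (median 0.54). The dehydrogenase Acadl was higher by 2.67 on Tl and 2.51 on Tm, and Etfdh, which passes electrons from oxidation to the respiratory chain, by 1.82 and 1.18. Acadm, the dehydrogenase for medium chains, changed by -0.30 and -0.68, and the mitochondrial carrier Ucp2 by -0.33 and 0.54.

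**Figure D5:**
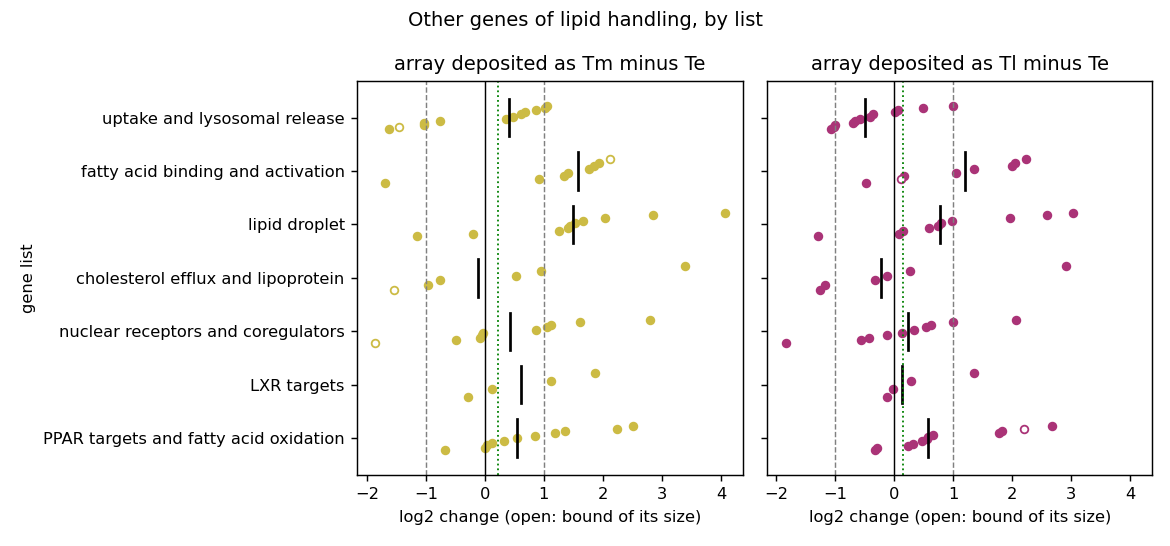
Change from the Te array in log2 of the other genes of lipid handling, 1 point per gene, by list, on the Tm array (left) and the Tl array (right); open points are bounds, black bars are list medians, dashed lines mark 2-fold and the dotted line is the median of all genes. In the droplet list 8 of 10 genes are at least 2-fold higher on Tm and 3 on Tl, and 1 is lower on each. Of all genes 29.2% and 22.3% are higher.

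Several of the 10 genes are also used by other cells of the skin, so markers were measured beside them. Of 16 macrophage markers 15 were found and all 15 were well above background on each array. Their summed level was 1082 at Te, 1033 on Tm and 666 on Tl, with median changes of -0.23 on Tm and -0.42 on Tl. These medians became 0.33 and 0.10 with scaling to the median, and 0.04 and 0.74 without normalization. The summed level adds the multiples of the 75th percentile over the probes of a list, so bright probes weigh most in it, and without Itgam the macrophage sum was 587, 610 and 435. Of the genes of the sort, Adgre1 (F4/80) changed by 0.69 and 0.33 and Itgam (CD11b) by -0.23 and -1.10 on Tm and Tl, and Csf1r by 0.70 and 0.16. Adipocytes use Lpl, Cd36, Fabp4, Pparg and Plin2. Of 10 adipocyte markers, 7 were well above background at Te, 5 on Tm and 6 on Tl, with a summed level of 7.87, 29.5 and 15.6, most of it from Lipe. On Tm 3 of 7 were at least 2-fold higher (Lipe 2.06, Plin1 1.37 and Cfd 1.33) and 1 lower, and on Tl 1 of 8 was higher (Lipe 1.11) and 2 were lower. The medians with bounds included were -0.41 and -0.43, but over markers detected on both arrays they were 1.33 and 0.02. None of the arrays had Lep or Pck1 well above background, and Adipoq was so on Te only, so that its decrease is at least 0.41 (log2 -0.41) on Tm and at least 1.47 (log2 -1.47) on Tl. On Tl Plin1 changed by 0.51, and Cidec changed by -0.42 on Tm and -0.88 on Tl. Endothelium uses Cd36 and Fabp4. All 10 endothelial markers were detected, with a summed level of 30.7 at Te, 17.7 on Tm and 25.6 on Tl. Their median changes were -0.95 on Tm and -0.27 on Tl. With scaling to the median these became -0.39 and 0.25, and without normalization -0.69 and 0.89. Cdh5 changed by -0.28 on Tm and 1.02 on Tl and Gpihbp1, which holds lipoprotein lipase on capillaries, by -0.63 and -0.75. The part of these cells in the values of the 10 genes was not tested.

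Fabp5, Dgat2 and other lipid genes are also used by keratinocytes and sebaceous glands. All 11 keratinocyte markers were detected on each array, and 9 were at least 2-fold higher on Tm and 8 on Tl than on Te, with 0 lower and medians of 3.29 and 3.09. Krt5 was higher by 3.97 and 3.32 and Krt14 by 3.13 and 2.88. The summed level was 273 at Te, 394 on Tm and 260 on Tl, most of it from a Trp63 probe, and without Trp63 it was 11.03, 131 and 97.4. Of 9 sebocyte markers 6 were well above background at Te and 7 on each later array, with a summed level of 18.4, 27.1 and 17.6. Of 7 sebocyte markers with a change, 3 were at least 2-fold higher and 1 lower on Tm (median 0.88) and 2 higher and 1 lower on Tl (median 0.63). Over sebocyte markers detected on both arrays the medians were 0.16 and -0.04, while Awat2 and Dgat2l6 were below that mark on all 3 arrays. Of 4 markers of Langerhans and dendritic cells 3 were at least 2-fold higher on each later array, with a summed level of 20.6 at Te, 146 on Tm and 89.9 on Tl and medians of 2.76 and 2.15. Of 6 T cell markers 3 were at least 2-fold higher and 0 lower on each later array (medians 1.15 and 0.58), among them Cd2 (2.58 on Tm and 2.09 on Tl), with a summed level of 1.97, 6.43 and 3.74. Of the fibroblast markers 1 of 8 was higher and 3 lower on Tm and 2 of 9 were higher and 3 lower on Tl, with a summed level of 94.0, 49.1 and 51.8. Most keratinocyte and Langerhans or dendritic cell markers were higher on both later arrays, as were Plin2 and Fabp5, and the part of these cells in the values of the lipid genes was not tested.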

How the data were processed

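Arrays of CD11b+Gr1-F4/80+ macrophages, 1 per stage from 3 pooled littermates, were analyzed. The authors quantified the images with Feature Extraction 10.7.3.1 and deposited the intensity of each spot, background-corrected and not normalized between arrays, and a table of log2 values. In that table, scaled to the 75th percentile, the columns named Tm and Tl hold the scanner values of Tl and Tm (100% of 36380 probes within 0.05). Here, control and outlier spots (162, 274 and 281 at Te, Tm and Tl) were removed, log2 intensities were averaged per probe, and the 75th percentile of the array (intensity 414, 497 and 927) was subtracted. Detection required a share of 0.5 of the spots above background by the software's call, met by 71.4%, 59.6% and 68.7% of probes. With 1 side not detected, a change is a bound against the lowest detected signal, and genes detected on at least 1 of both arrays were counted. The probe with the highest mean represents a gene. RefSeq accessions (GRCm38.p6) named 26056 of 55681 probes. Genes named are the 10 members, set markers, and the 2 highest and 2 lowest of each list by change from Te to Tl among genes detected on both, of which 1 is not reported here, and Lipe, Cfd, Cd2, Trp63 and single housekeeping genes were named after their values were seen. Members and lists were chosen with earlier results of these data known. The steps were tested on simulated data. Alternatives were other scalings, normexp (limma 3.58.1, offset 50), the log2 table, other filters, thresholds of 5-fold and 10-fold (the latter from the methods of the study) and exchanged arrays, and changes relative to the median of all genes were added after seeing the data. The number of arrays limits the precision. Python 3.11.15, pandas 2.3.3 and R 4.3.3 were used.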

Additional observations from a re-analysis of the deposited data

Results flagged for a closer look

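Cd36, the scavenger receptor, had values of opposite sign against the Te array, 0.55 in log2 on the Tl array and -0.29 on the Tm array, as deposited. The Tm value is within 2 SD of the spot error and was 0.26 with scaling to the median. The difference between these changes was not tested, since each stage is 1 array, and it is the difference between the Tl and Tm levels of a single spot per array.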

How the results depend on the processing

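The count of the 10 genes at least 2-fold higher on Tl than on Te (2) became 1 when scaled over detected probes or taken relative to the median of all genes, 6 with scaling to the median, 9 without normalization, and 0 at 5-fold and at 10-fold, where the share of all genes higher was 16.7% when scaled over detected probes, 38.7% with scaling to the median and 60.2% without normalization. The count of lower genes (0) became 1 with the deposited log2 table and with exchanged arrays, where 34.4% and 16.9% of all genes were lower. The median change (0.54) became 0.34 when scaled over detected probes, 1.06 with scaling to the median, 1.71 without normalization and 1.45 in the log2 table. For Tm against Te, the count of higher genes (3) became 5 with scaling to the median, where 46.1% of all genes were higher. It was 0 at 5-fold and 10-fold, where the share of all genes was not counted either. The count of lower genes (1) became 0 with scaling to the median, without normalization, in the log2 table and with exchanged arrays. In these settings 7.85%, 12.0%, 35.9% and 21.1% of all genes were lower. The count of lower genes was also 0 at 5-fold and at 10-fold, again without a share of all genes. The median (0.39) became 0.0173 when scaled over detected probes, 0.15 with quantile normalization, 0.95 with scaling to the median, 0.65 without normalization, 0.68 in the log2 table and 0.17 relative to the median of all genes. Without normalization Msr1 (0.0853) and Lrp1 (0.13) were higher on Tl than on Te, the reverse of their reported changes. The cause was not tested beyond the scaling itself. The log2 table holds 5 of the 10 genes and exchanges the Tm and Tl arrays. Of the remaining values for counts and medians 59 stayed within 1.5 times or within the spot error. Some of these came from filters on detection that could not alter the values of the 10 genes. No paired analysis was possible because each stage has 1 array, and no array could be left out for the same reason. The signal at the 75th percentile was 22.6 times the lowest detected signal at Te, 16.5 times on Tm and 34.3 times on Tl.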
